A study of Mus musculus with 4 samples.

Results

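The 8 genes described here act in hepatic glucose sensing, glycolysis and gluconeogenesis. They are Mlxipl and Gckr, which sense or regulate sugar flux, Slc2a2, which carries glucose, Pklr and Khk, which break down hexoses, and Pck1, Fbp1 and G6pc, which make glucose. They were chosen by name from the 25655 genes of a liver RNA sequencing experiment with 4 libraries. The libraries came from male mice on a B6129S background that were 5 weeks old when a high-fat diet (HFD) began and ate it for 12 weeks. The 2 HFD-WT libraries came from ADAR2+/+ mice and the 2 HFD-KO libraries from ADAR2-/- mice, which lack the RNA editing enzyme ADAR2 in all tissues. Mice of either genotype were also homozygous for GluR-B R, an allele of a glutamate receptor gene that encodes the edited form of its protein and that prevents the early death of ADAR2-/- mice. Livers of mice on a standard diet were not analysed here, so no value below bears on the diet. The study counts more mice in a group than it has libraries, and the sources used here do not say whether RNA of several mice was pooled, nor whether the mice were fed or fasted when the liver was taken. The p-values therefore measure only the spread between these libraries.

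The liver takes up glucose after a meal and releases it during fasting. GLUT2, the protein of Slc2a2, equilibrates glucose across the hepatocyte membrane. The protein of Gckr is a regulator that restrains glucose phosphorylation in hepatocytes, in a way that depends on sugar metabolites. Glycolysis ends at liver pyruvate kinase, encoded by Pklr, whose gene is a classic target of ChREBP, the sugar-responsive transcription factor encoded by Mlxipl. Gluconeogenesis runs the opposite way through phosphoenolpyruvate carboxykinase (Pck1), fructose-1,6-bisphosphatase (Fbp1) and glucose-6-phosphatase (G6pc). Insulin is known to repress Pck1 and G6pc, while glucagon acts on Pck1 and G6pc in the other direction.

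Total counts ranged from 24480798 to 28691330 per library, and the 8 genes took between 0.468% and 0.541% of them. The lowest count of any of the 8 genes in any library was 4074. Counting error was therefore at most 1.57% of a value. Counts are given as CPM, counts scaled to the library total after TMM adjustment. Adarb1, the gene that encodes ADAR2, had 15.7 and 19.8 CPM in HFD-WT and 6.23 and 9.55 CPM in HFD-KO, so both HFD-KO libraries were lower, as their labels say, and reads remained in both. The HFD-KO libraries differed more from each other (chi-square per degree of freedom 43.0) than the HFD-WT libraries did (10.8).

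All 8 genes passed the filter on low counts, and none reached an adjusted p under 0.05 by edgeR, where 0.0771% of the 12967 genes tested did (0.054% higher and 0.0231% lower). DESeq2 called none of the 8 either, and 120 of 11961 genes in all. At an unadjusted p under 0.05, 2 of the 8 genes passed (Mlxipl higher, Pklr lower), beside 8.98% of all genes tested (4.25% higher and 4.73% lower, or 551 and 613 genes, which became 346 and 894 with library size alone as the scaling). In 3 of the 8 genes the groups did not overlap, with Mlxipl higher and Pklr and Fbp1 lower in both HFD-KO libraries, and 40.8% of all genes tested had groups that did not overlap (20.5% higher and 20.3% lower). For 5 genes the log2 fold change was within 0.1 of 0 (Gckr, Slc2a2, Khk, Pck1 and Fbp1). The median log2 fold change of the 8 genes was -0.034, beside 0.0068 for all genes tested.

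**Figure D1:**
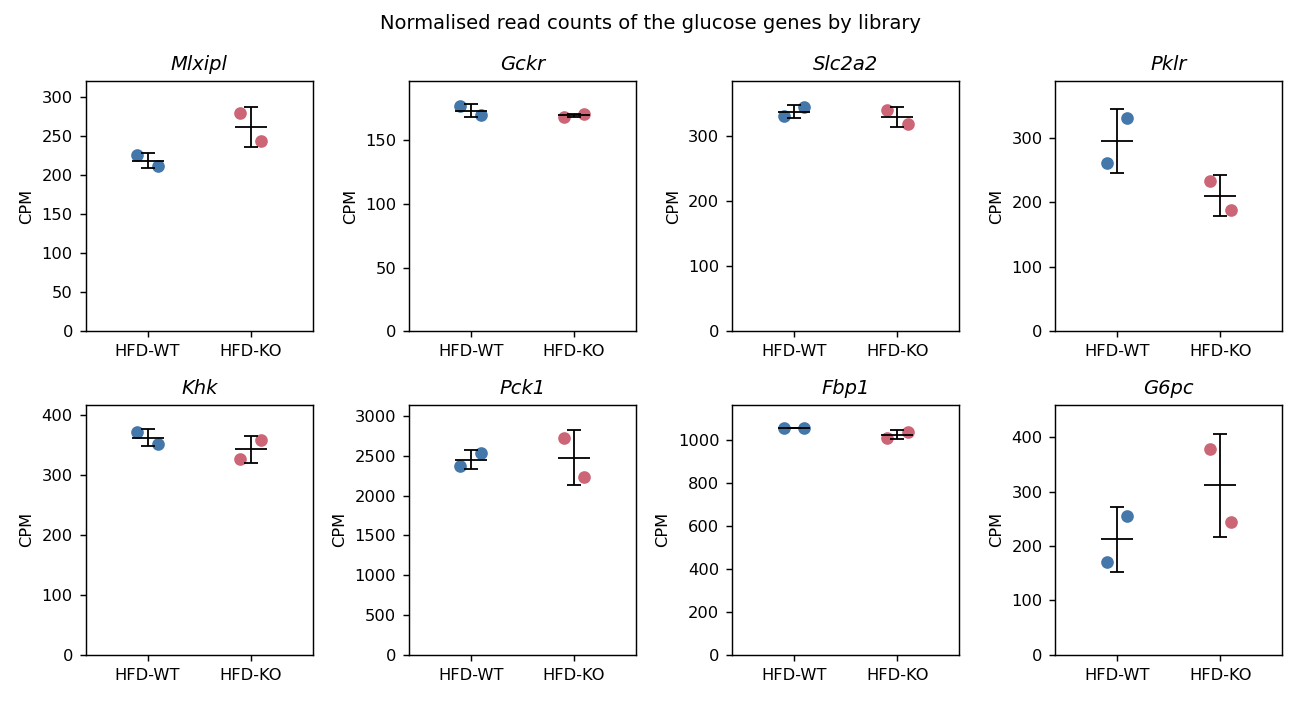
Normalised read counts (CPM, scaled to the library total after TMM adjustment, axes from 0) of the 8 genes in each library. Points are libraries and bars are the mean ± SD of 2 libraries per group. The groups are apart for Mlxipl, Pklr and Fbp1, and G6pc spans from 169.9 to 378 CPM.

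Among the sensing and regulatory genes, Mlxipl was higher and Gckr nearly level. Mlxipl (ENSMUSG00000005373, GRCm39 chr5:135118744-135167236, plus strand) had 225 and 211 CPM in HFD-WT and 279.5 and 244 CPM in HFD-KO. Both HFD-KO libraries lay above both HFD-WT libraries. Its log2 fold change was 0.26 (SE 0.097, 95% interval 0.034 to 0.49, n = 2 per group), a 1.2-fold higher mean, with an adjusted p of 0.493 by edgeR. Without HFD-KO replicate 2 the log2 fold change was 0.36, and without HFD-KO replicate 1 it was 0.16, so its size depended on which HFD-KO library was kept. With library size alone as the scaling, the log2 fold change was 0.22 and the unadjusted p was no longer under 0.05. Gckr (ENSMUSG00000059434, chr5:31454787-31484658, plus strand) had 177 and 169.5 CPM in HFD-WT and 168 and 171 CPM in HFD-KO, and these values overlapped. Its log2 fold change was -0.030 (95% interval -0.21 to 0.15), with an adjusted p of 0.936 by edgeR.

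The promoter window of Mlxipl is shown because it holds an E-box, the letters that the family of factors to which ChREBP belongs can bind. The windows are the 250 bases before each transcription start in RefSeq on GRCm38.p6, a build other than that of the count table. All 8 genes had a window, and Pklr and Mlxipl had 2 each. Capitals mark the E-box (CACGTG), which begins 98 bases before the start in the window at chr5:135089640-135089889. The E-box, which reads alike on both strands, was found in 6.02% of 32851 promoters of the same length.
Mlxipl: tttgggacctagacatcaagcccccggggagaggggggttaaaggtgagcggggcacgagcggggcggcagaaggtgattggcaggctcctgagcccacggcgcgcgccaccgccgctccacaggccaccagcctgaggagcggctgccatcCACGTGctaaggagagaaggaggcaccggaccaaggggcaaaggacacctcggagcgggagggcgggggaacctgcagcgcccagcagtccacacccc
The other Mlxipl window held no E-box and had 1 glucocorticoid hexamer (TGTTCT on either strand), which 16.1% of promoters hold. The Gckr window held 1 glucocorticoid hexamer and 1 HNF1 motif (GTTAAT on either strand, in 6.43% of promoters). A match to letters is a description of the window and not evidence of binding.

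Slc2a2, the route by which glucose enters and leaves the hepatocyte, was nearly level. Slc2a2 (ENSMUSG00000027690, chr3:28752052-28785508, plus strand) had 331 and 345 CPM in HFD-WT and 339.9 and 318 CPM in HFD-KO. The HFD-KO libraries lay on either side of the lower HFD-WT library. Its log2 fold change was -0.038 (95% interval -0.24 to 0.16), with an adjusted p of 0.926 by edgeR, and it was 0.0079 without HFD-KO replicate 2.

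Pklr, which encodes the last enzyme of glycolysis, was lower in HFD-KO. Pklr (ENSMUSG00000041237, chr3:89043449-89054091, plus strand) had 260.5 and 330.3 CPM in HFD-WT and 233 and 188 CPM in HFD-KO. Both HFD-KO libraries lay below both HFD-WT libraries, although the libraries of each group also differed from each other, by 1.27-fold in HFD-WT and 1.24-fold in HFD-KO. Its log2 fold change was -0.49 (SE 0.144, 95% interval -0.83 to -0.15, n = 2 per group), 0.713 of the HFD-WT level, with an adjusted p of 0.395 by edgeR. Leaving out any 1 library moved it to between -0.66 and -0.31. Without HFD-KO replicate 1, the closer of that pair to HFD-WT, the log2 fold change was -0.65, and without HFD-KO replicate 2 it was -0.34. Without HFD-WT replicate 2 the log2 fold change was -0.31 and the unadjusted p was no longer under 0.05. Hcn3 overlaps Pklr on the opposite strand over 711 bases, and its counts were at most 0.0977% of those of Pklr in any library.

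The 2 Pklr windows belong to the separate starts of its erythrocyte and liver forms, of which the downstream one serves the liver form. The downstream window is shown because it holds a pair of imperfect E-boxes 5 bases apart, the form of a carbohydrate response element. Capitals mark that pair, which begins 170 bases before the start at chr3:89136373-89136622 on GRCm38.p6. The motif was CACGNGNNNNNCNCGTG, which was searched after the windows had been read, and it occurs in 13 of 32851 promoters (0.0396%).
Pklr: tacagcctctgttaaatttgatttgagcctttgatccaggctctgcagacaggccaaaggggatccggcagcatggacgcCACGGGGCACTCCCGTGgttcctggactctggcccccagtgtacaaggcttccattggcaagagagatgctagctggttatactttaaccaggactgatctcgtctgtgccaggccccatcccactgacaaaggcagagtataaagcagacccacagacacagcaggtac
The upstream Pklr window held none of the motifs searched. Of the 10 windows of the 8 genes, the downstream Pklr window was the only one with the paired form. Because the motif was added after that window had been read, neither this nor the share of promoters is a test.

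Khk encodes ketohexokinase, which phosphorylates fructose, and its level was similar in both groups. Khk (ENSMUSG00000029162, chr5:31078775-31088592, plus strand) had 372 and 352 CPM in HFD-WT and 327 and 359 CPM in HFD-KO. The higher HFD-KO library lay between the HFD-WT libraries. Its change was -0.078 on the log2 scale (95% interval -0.29 to 0.13), with an adjusted p of 0.842 by edgeR. Its promoter window held an E-box 71 bases before the start, where the E-box overlaps the short cAMP response motif (TGACG on either strand, in 17.8% of promoters), and an HNF1 motif.

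None of the gluconeogenic genes passed the test, and Pck1 and Fbp1 were nearly level. Pck1, whose enzyme commits oxaloacetate to glucose synthesis (ENSMUSG00000027513, chr2:172994841-173001066, plus strand), had 2367 and 2538 CPM in HFD-WT and 2720.2 and 2232 CPM in HFD-KO. The HFD-KO libraries were the highest and the lowest of the 4. Its log2 fold change was 0.014 (SE 0.131, 95% interval -0.29 to 0.32), with an adjusted p of 0.983 by edgeR, and its sign turned with library size alone as the scaling (-0.032). The interval spans folds from 0.816 to 1.25, so a change within that range was not excluded. That interval applies to Pck1 alone and is not a limit of detection for other genes. Adarb1, at 6.23 to 19.8 CPM, had a log2 fold change of -1.17 (95% interval -1.65 to -0.70) and an adjusted p of 0.159 by edgeR. Fbp1, whose enzyme opposes phosphofructokinase (ENSMUSG00000069805, chr13:63012567-63036096, minus strand), had 1054 and 1053 CPM in HFD-WT and 1007 and 1037 CPM in HFD-KO. Both HFD-KO libraries were lower, by little, with a log2 fold change of -0.044 (95% interval -0.26 to 0.17) and an adjusted p of 0.922 by edgeR.

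G6pc, whose enzyme releases free glucose as the last step of both gluconeogenesis and glycogen breakdown, had the largest fold change of the 8 genes and the widest spread. G6pc (ENSMUSG00000078650, chr11:101258387-101268729, plus strand) had 169.9 and 255 CPM in HFD-WT and 378 and 245 CPM in HFD-KO. HFD-KO replicate 1 was above all other libraries, and HFD-KO replicate 2 lay just below HFD-WT replicate 2, so the groups overlapped. Replicates differed by 1.5-fold in HFD-WT and 1.54-fold in HFD-KO, about as much as the 1.47-fold difference between genotypes. The difference was 0.55 on the log2 scale (SE 0.236, 95% interval -0.00083 to 1.11, n = 2 per group), with an adjusted p of 0.556 by edgeR. It was 0.83 without HFD-KO replicate 2 and 0.21 without HFD-KO replicate 1, so its size depended on which HFD-KO library was kept. The log2 fold change was 0.87 without HFD-WT replicate 2 and 0.28 without HFD-WT replicate 1.

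**Figure D2:**
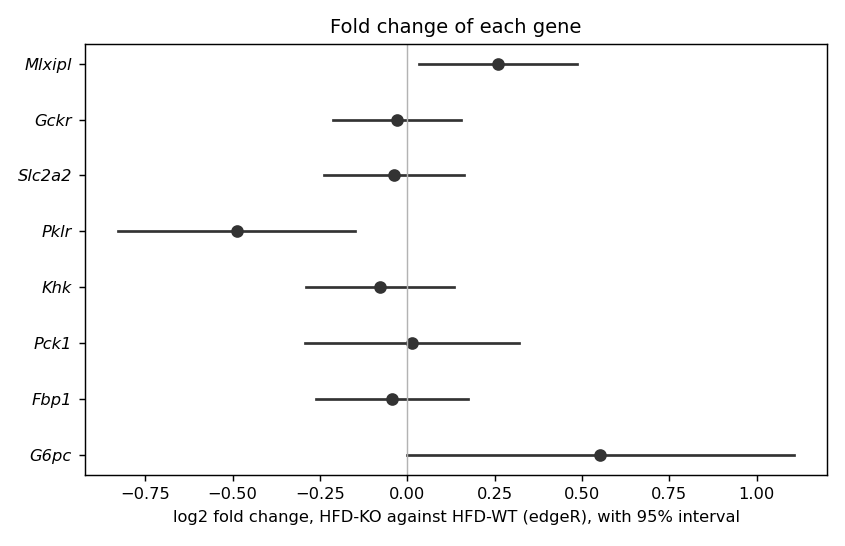
Difference between genotypes (log2 fold change, HFD-KO over HFD-WT) for the 8 genes, with the 95% interval from edgeR (n = 2 libraries per group). The interval lies above 0 for Mlxipl and below 0 for Pklr, reaches from -0.00083 to 1.11 for G6pc, and includes 0 for the other genes.

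The promoter windows of Pck1 and G6pc are shown because both genes are classic targets of cAMP signalling. In the Pck1 window, at chr2:173152823-173153072 on GRCm38.p6, capitals mark an HNF1 motif 192 bases and a cAMP response element core (TGACGT on either strand) 91 bases before the start. The core was found in 6.47% of promoters and includes the short motif. In the G6pc window, at chr11:101367466-101367715, capitals mark an HNF1 motif 221 bases before the start.
Pck1: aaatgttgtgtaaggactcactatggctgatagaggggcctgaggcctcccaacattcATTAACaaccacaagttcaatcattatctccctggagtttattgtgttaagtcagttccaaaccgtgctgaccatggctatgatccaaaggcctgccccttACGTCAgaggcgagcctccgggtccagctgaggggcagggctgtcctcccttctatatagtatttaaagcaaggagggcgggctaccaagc
G6pc: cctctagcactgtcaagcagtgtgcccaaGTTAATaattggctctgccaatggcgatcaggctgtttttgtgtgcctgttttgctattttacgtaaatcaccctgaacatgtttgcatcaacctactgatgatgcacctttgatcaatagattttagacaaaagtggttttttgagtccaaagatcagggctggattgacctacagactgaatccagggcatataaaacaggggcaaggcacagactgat
The G6pc window held neither the core nor the short motif of the cAMP element in these letters. None of the motifs was found in the Slc2a2 and Fbp1 windows. No window of the 8 genes held the HNF4 core (AAAGTCC, in 3.58% of promoters) or the FOXO site (TGTTTAC, in 3.17%), searched on both strands. Only these exact letters were searched, so a miss does not mean that a variant form of an element is absent.

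The gluconeogenic genes Pck1 and Fbp1 had the highest levels of the 8. Levels of different genes were compared by the deposited RPKM, which divides by gene length. Mean RPKM over the 4 libraries was 857 for Pck1, 564 for Fbp1 and 189.7 for Khk, and the ranges of these genes did not overlap with each other or with those of the other 5. G6pc had a mean RPKM of 100.1, Pklr 77.1 and Gckr 69.7, with overlapping ranges (65.7 to 143 for G6pc, 55.6 to 103 for Pklr and 67.7 to 72.6 for Gckr). Slc2a2 had a mean RPKM of 55.4 and Mlxipl 52.9, with ranges that overlapped each other and that of Pklr. All 8 genes were above 96.3% of the genes in the table.

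**Figure D3:**
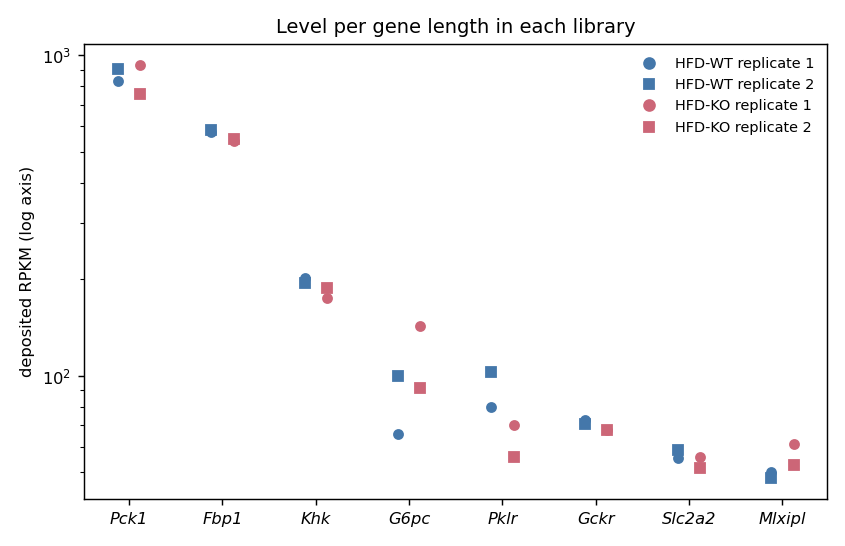
Deposited RPKM (log axis) of the 8 genes in each library, ordered by mean level. Blue and red points are HFD-WT and HFD-KO libraries, and circles and squares are replicates 1 and 2. Pck1, Fbp1 and Khk stand apart from the rest, while G6pc, Pklr and Gckr overlap.

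Ratios of opposing enzymes within a library do not depend on the scaling between libraries, and 2 are given. The ratio of Pck1 to Pklr RPKM was 10.4 and 8.79 in HFD-WT and 13.3 and 13.6 in HFD-KO, a log2 difference of 0.49. The ratio of Fbp1 to Pfkl, which encodes liver phosphofructokinase, went the other way, with 52.1 and 46.5 in HFD-WT and 44.0 and 33.4 in HFD-KO, a log2 difference of -0.36. This difference was -0.56 without HFD-KO replicate 1 and -0.16 without HFD-KO replicate 2. The groups did not overlap in either ratio, as they did not in 40.8% of the single genes tested. Pck1 and Fbp1 were nearly level, so the ratios mostly restate Pklr (log2 fold change -0.49) and Pfkl. Pfkl was higher in both HFD-KO libraries (0.33, unadjusted p = 0.0545 by edgeR). Each ratio gave p = 0.333 by a two-sided exact permutation test, also after adjustment over both, which is the smallest p that 2 libraries against 2 can give.

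**Figure D4:**
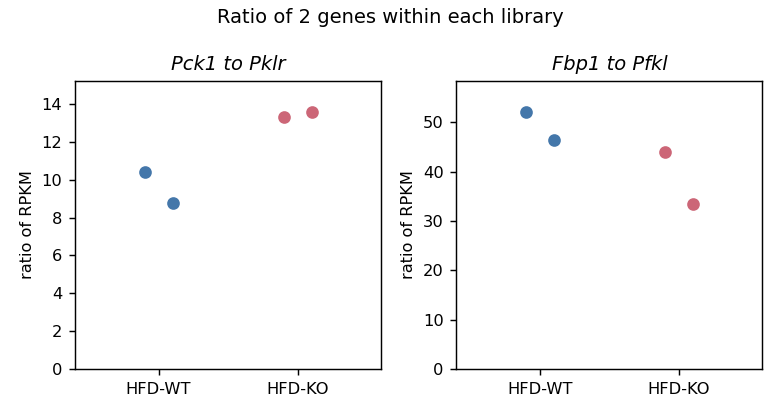
Ratio of the RPKM of 2 genes within each library, with axes from 0. Points are libraries, 2 per group. HFD-KO is higher in the ratio of Pck1 to Pklr and lower in the ratio of Fbp1 to Pfkl.

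The other genes of these pathways were described in lists. Of 99 genes in 7 lists 98 were in the table, 94 were tested, and none had an adjusted p under 0.05 by edgeR. At an unadjusted p under 0.05, HFD-KO was higher in 1 and lower in 12 (13.8% of the 94, beside 8.98% of all genes tested), and 59 of the 94 had a log2 fold change below 0, beside 48.4% of all genes. In glycolysis, 3 of 22 were lower at that p and none higher. These were the hexokinases Hk2 (-1.06, adjusted p = 0.112 by edgeR) and Hk3 (-0.66), and Pfkfb1 (-0.29), which makes and removes the phosphofructokinase activator fructose-2,6-bisphosphate. Both hexokinases were low, with 7.67 and 8.07 CPM in HFD-WT and 3.99 and 3.56 CPM in HFD-KO for Hk2. Hk3 had 3.97 and 6.29 CPM in HFD-WT and 2.96 and 3.52 CPM in HFD-KO. Gapdh and Ldha, glycolysis genes of high RPKM, had log2 fold changes of -0.11 and 0.073. In gluconeogenesis, 1 of 21 was lower, Sds (-0.55), which makes pyruvate from serine, while Got2 and Gpd1 were at -0.033 and 0.019.

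In the pentose phosphate list, 3 of 8 genes were lower at an unadjusted p under 0.05, beside 4.73% of all genes tested. They were G6pdx (-0.51), which catalyses the first step, Pgd (-0.35) and Tkt (-0.25), and none of the 8 was higher. Among 19 regulators, 2 were lower: Mlxip (-0.47), a relative of Mlxipl, and Onecut1 (-1.43), for which HFD-WT replicate 1 had 34.8 CPM and the other libraries between 5.01 and 11.3, with HFD-WT replicate 2 (9.05 CPM) below HFD-KO replicate 2, so that the groups overlapped. Mlx, the partner of ChREBP, had 31.7 and 31.3 CPM in HFD-WT and 29.3 and 30.1 CPM in HFD-KO. Among 9 transporters tested, Slc16a7 was lower (-0.23) and Slc2a5, a fructose carrier, higher (0.40), and Slc2a4 was lower but below 1 CPM in every library. Slc2a5 was also the only one of 5 fructose and polyol genes past that p, and Dlat (-0.26) the only one of 12 genes of pyruvate dehydrogenase and its regulation.

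Genes known to follow ChREBP and genes known to follow fasting or cAMP were also counted. At an unadjusted p under 0.05, 4.25% of all genes tested were higher and 4.73% lower. Of 14 ChREBP targets tested, 4 had a lower and 1 a higher level at that threshold, with a median log2 fold change of -0.20. The lower ones were lipogenic, namely Thrsp (-1.05, adjusted p = 0.0611 by edgeR), Elovl6 (-0.42), Fasn (-0.40) and Acaca (-0.23), and the higher one was Arrdc4 (0.37). The study also places the enzymes of Fasn and Acaca downstream of SREBP-1c, a regulator of lipid synthesis. The part of SREBP-1c or ChREBP in these values was not tested. Mlxipl itself was higher, at 0.26, and Pklr, also a known target, lower, at -0.49. Of 16 fasting or cAMP targets, 4 were higher (Igfbp1 1.72, Sik1 0.82, Irs2 0.68 and Nr4a1 0.68) and 2 lower (Lpin1 -1.24 and Sds -0.55), with a median of 0.13 that fell to 0.047 without HFD-WT replicate 1 and 0.060 without HFD-KO replicate 2. Sik1 resembled G6pc in that its highest value was in HFD-KO replicate 1, with 28.3 CPM beside 10.8 to 15.9 CPM in the other libraries. Igfbp1 was instead highest in HFD-KO replicate 2, with 293 CPM beside 48.3 to 93.6 CPM.

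**Figure D5:**
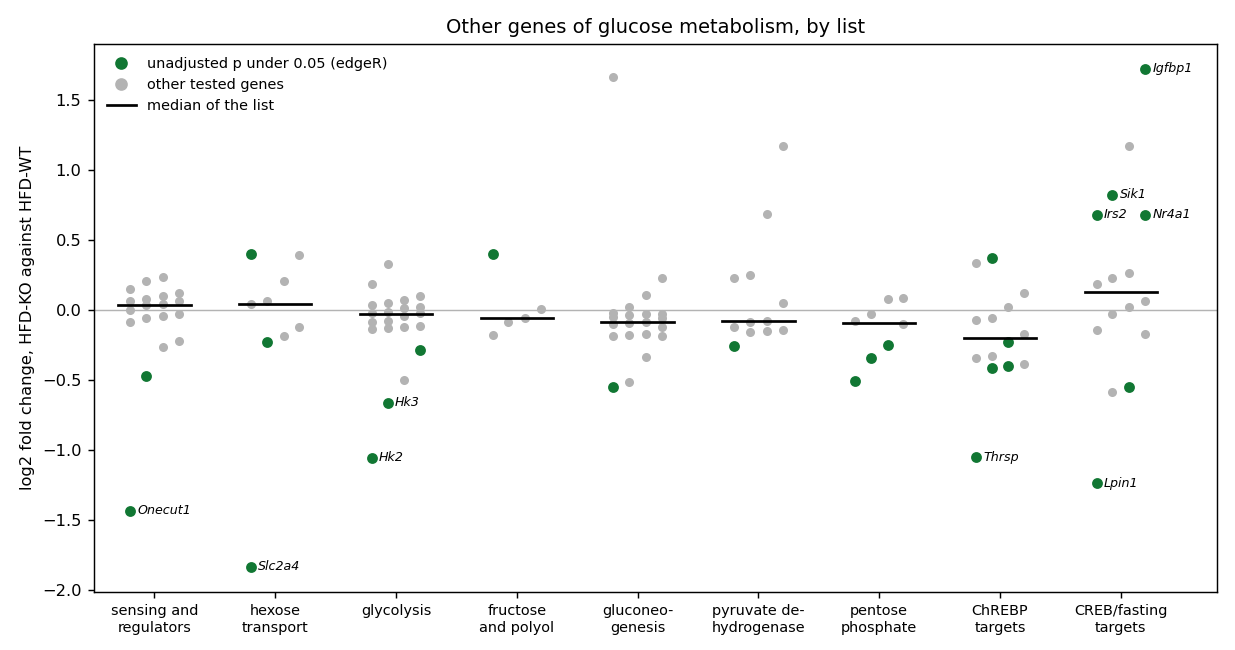
Difference between genotypes (log2 fold change, HFD-KO over HFD-WT) of every tested gene in 9 lists, without the 8 genes themselves. Green points have an unadjusted p under 0.05 by edgeR, grey points do not, and black lines are medians. Most green points lie below 0 in every list but the fasting targets (4 of 6 above) and the fructose list, and the median of the transport list turns negative without the filter on low counts (-0.045), with library size alone (-0.0022), without HFD-WT replicate 1 (-0.18) and without either HFD-KO library (-0.022 and -0.028).

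For each of the 8 genes, the pathway gene with the most similar pattern over the 4 libraries was found by the root mean square (RMS) difference of log2 CPM centred per gene, among 94 genes. Pklr was nearest to G6pdx (RMS difference 0.064, beside a spread of 0.294 in Pklr itself) and Mlxipl to Pdp2, a pyruvate dehydrogenase phosphatase (0.068 beside 0.150). Pck1 was nearest to Gpd1 (0.033 beside 0.107). G6pc had the largest RMS difference to its nearest gene, Slc2a5 (0.229 beside 0.408). For Gckr the nearest was Pfkp (0.023 beside 0.027), so the difference was nearly as large as the spread of Gckr. The nearest genes of the others were Rpe for Slc2a2 (0.0081 beside 0.045), Pfkm for Khk (0.024 beside 0.068) and Pfkp for Fbp1 (0.0058 beside 0.027). Pfkp had 85 to 105 counts and G6pdx 81 to 153, so counting error was larger in them than in the 8 genes.

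Markers of other cells and of liver zones were measured beside these values, since in bulk tissue fewer cells of a type and less RNA per cell cannot be told apart. Hepatocyte markers summed to between 73413 and 87878 CPM, with the highest value in HFD-KO replicate 2, where Alb alone had 66104 CPM. Of 7 hepatocyte markers, Serpina1a was higher (0.32) and Cyp3a11 lower (-0.88) at an unadjusted p under 0.05. The share of all genes tested past that p was 4.25% higher and 4.73% lower, which applies to each marker count here. Kupffer cell markers were lower in HFD-KO (263 to 273 CPM, beside 346 to 429 CPM in HFD-WT), with 6 of 8 genes lower at an unadjusted p under 0.05, and stellate markers were lower with 3 of 6 (192 to 258 beside 295 to 325 CPM). The Kupffer and stellate sums were lower in both HFD-KO libraries, as was Pklr and as were 20.3% of all genes tested. Red cell genes were higher with 3 of 5 (811 to 1146 beside 600.5 to 757 CPM). Endothelial markers were at 207 to 220.1 CPM in HFD-KO and 212 to 233 CPM in HFD-WT, and bile duct markers at 50.04 to 59.4 and 71.5 to 90.5 CPM, with 1 gene lower in each. In the bile duct list a single gene reached 83.9 CPM, so that sum is not a reading of the list as a whole. Its lower gene was Spp1, which also had the highest RPKM of that list. Genes of the pancreas and of the kidney, the latter a source of G6pc and Pck1 outside the liver, were each below 1 CPM in every library, and Ins2, Slc12a1, Kap and Slc22a6 were at 0. Of 10 periportal genes, the zone where gluconeogenesis is strongest, 3 were lower, with sums of 7797 to 9623 CPM in HFD-KO and 8829 to 9673 CPM in HFD-WT. Of 10 pericentral genes none passed an unadjusted p under 0.05 by edgeR, with sums of 13012 to 14547 and 12246 to 14337 CPM. The part of these differences in the values of Pklr, Mlxipl and G6pc, and of listed genes such as Hk2, Hk3 and G6pdx, was not tested.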

How the data were processed

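Liver RNA was extracted with TRIzol, and polyA RNA libraries were made with a directional kit of MGI Tech. Paired reads were trimmed and aligned by the authors with a tool of MGI Tech, and genes of GENCODE were quantified in Partek Genomics Suite. Versions, the use of strand and the handling of reads with several alignments are not given in the sources used here. The labels name GRCm39 and mm10, and gene positions in the table are of GRCm39. The table deposited by the authors holds read counts per gene, which were tested here, and RPKM values, used for levels and ratios between genes. The TPM values and the scaled CPM score that the authors deposited were not used.

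The counts went into edgeR 4.0.16 (R 4.3.3) with filterByExpr by group (12967 of 25655 genes), TMM scaling and the two-sided quasi-likelihood test, HFD-KO against HFD-WT, with Benjamini-Hochberg adjustment over all genes tested. The 4 libraries were grouped by their labels. Fold changes come from this fit, CPM was computed from the TMM-scaled totals, and ratios of RPKM were compared by exact permutation. Alternatives were DESeq2 1.42.0, its size factors in edgeR, library size alone, no filter on low counts, a replicate block, and each library left out. The procedure was tested on simulated data.

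The 8 genes, the lists and the motifs were chosen with earlier results of these data known. From each list, the candidates for naming were the genes of smallest unadjusted p under 0.05 (up to 6) and of highest RPKM (2). Not all of these candidates are printed, so the named genes are a selection. Mlx and the values of Sik1 and Igfbp1 by library were added after their values had been seen. Results for 2 genes, and ratios that use them, are not reported here, and these genes were left out of the lists. Aldoa and Tf were not matched by name and are not analysed here. Intervals have a 95% level. Motifs were searched in RefSeq promoters (GRCm38.p6, 1 chromosome left out) with Python 3.11.15, and plots were drawn with matplotlib 3.10.9.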

Additional observations from a re-analysis of the deposited data

How the results depend on the processing

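Gckr, Pklr, Mlxipl, Khk, G6pc and Fbp1 kept their direction under all 9 alternatives. Slc2a2 turned to 0.0079 without HFD-KO replicate 2 and ranged from -0.086 with a library left out. Pck1 turned to -0.032 with library size alone, and ranged from -0.14 (without HFD-KO replicate 1) to 0.15 with a library left out, with -0.042 without HFD-WT replicate 1. None of the 8 genes had an adjusted p under 0.05 except when an HFD-KO library was left out (0 to 2 genes over the libraries left out). At an unadjusted p, 1 passed with library size alone and 1 to 3 with a library left out. The adjusted calls over all genes, 7 higher and 3 lower, became 4 higher with library size alone, 81 and 81 without the filter and 60 and 60 with DESeq2, and ranged from 0 to 376 higher and from 0 to 329 lower with a library left out. The counts at an unadjusted p, 551 higher and 613 lower, became 346 higher and 894 lower with library size alone, a scaling that moved the median of all genes by -0.046, and 298 and 373 with DESeq2. They ranged from 255 to 1095 and from 207 to 1078 with a library left out. Of the pathway genes, those higher at an unadjusted p numbered 0 with DESeq2 size factors or library size alone, 5 without the filter, 2 with DESeq2 and 1 to 11 with a library left out, and those lower 5 to 18 with a library left out. Pathway genes with an adjusted p under 0.05 numbered 1 without the filter, 1 with DESeq2 and 0 to 11 with a library left out. The cause of these shifts was not tested. With a library left out, the lone library is assumed to vary like the other group's.

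The replicate numbers are shared by both groups, but deviations of same-numbered libraries were not positively correlated (r = -0.087 over 12967 genes), so the numbers were not taken to pair the libraries. With the replicate block, 12 genes were higher and 8 lower at an adjusted p under 0.05, and no call of the 8 genes was different. With 2 libraries per group, the SE of the 8 log2 fold changes ranged from 0.078 to 0.24, which limits the differences that could be seen more than the depth does.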

Other observations

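Genes of the circadian clock, under whose control several enzymes of hepatic glucose metabolism are known to stand, were measured in the same libraries, for which the time of collection is not given in the sources used here. Of 13 clock genes, 2 were higher in HFD-KO at an unadjusted p under 0.05 by edgeR (Nr1d1, log2 fold change 0.47, and Nr1d2, 0.20). At that p, 2 were lower (Ciart -0.44 and Cry1 -0.45), and none had an adjusted p under 0.05. Of all genes tested, 4.25% were higher and 4.73% lower at the unadjusted threshold. Nr1d1, a transcriptional repressor, had 82.8 and 73.4 CPM in HFD-WT and 117 and 100.2 CPM in HFD-KO. Dbp, an output of the clock, had 88.2 and 80.3 CPM in HFD-WT and 108 and 90.1 CPM in HFD-KO. The part of these differences in the values of the glucose genes was not tested.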
